A study of Mus musculus with 2 samples.

Results

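Osteoclast-rich spots of the fracture callus were taken as the spatial spots with the highest combined level of Acp5, Ctsk and Mmp9, the genes of tartrate-resistant acid phosphatase, cathepsin K and gelatinase B. A spot is a small disc of tissue on the capture slide whose RNA is read together, so it can hold several cells of different types. Spots with at least 1000 unique molecular identifiers (UMIs, single captured molecules) were kept, the counts of the 3 genes per 1000000 UMIs of the spot (CPM) were summed, and the top 5% of both sections together were named osteoclast-rich. This gave 296 spots of 5920 kept and of 6380 under tissue. The spots were thus chosen by the measured levels of Acp5, Ctsk and Mmp9, which are given only as a description.

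The calluses came from distal tibia fractures stabilized with an intramedullary pin in female littermate mice 2 months old, harvested 10 days after injury, fixed in formalin, decalcified in EDTA and embedded in paraffin. Control tissue was Nf1[+/flox] without Cre, and the other genotype, called Nf1Postn, was Postn-cre;Nf1[flox/-]. Nf1 encodes neurofibromin, a brake on Ras signaling. In Nf1Postn mice the promoter of periostin (Postn), a gene of the periosteum and other connective tissues, drives Cre in those cells, while every cell, osteoclasts included, carries 1 germline null allele, and both genotypes carry a floxed allele. Calluses of the 2 genotypes shared a paraffin block, and each of the 2 arrays held 1 section with both. GEO numbers the sections as biological replicates, but the sources used here do not say whether they came from different animals, so they were treated as 2 sections of 1 callus per genotype. No test between genotypes or groups of spots was therefore made. The sections held 17026501 and 18108050 UMIs, all intervals are 95% intervals for counting error only, and in a spot fewer cells of a type cannot be told apart from less RNA per cell.

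Osteoclasts are large cells with many nuclei that form by fusion of precursors of the monocyte lineage under the cytokines CSF1 and RANKL. They seal off a patch of mineralized matrix, pump acid into it with a vacuolar proton pump and a chloride channel, and digest it with secreted enzymes. In a fracture callus they, and related cells at the cartilage front, remove calcified cartilage and remodel the new woven bone.

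Siglec15, a receptor of mature osteoclasts that took no part in the choice of spots, followed the label. Its level in osteoclast-rich spots was 180 CPM in control section 1, 168 in control section 2, 123 in Nf1Postn section 1 and 48.1 in Nf1Postn section 2, against 22.5, 21.4, 15.9 and 5.61 CPM in the other spots of the same sections and genotypes. The log2 ratio of osteoclast-rich over all other spots was 3.24 (3.06 to 3.42), although the Nf1Postn levels rested on 8 UMIs. The boundary of the class was a cut through a continuum, since the lowest osteoclast-rich spot had a summed level of 20209 CPM and the highest spot outside had 20189 CPM. The median was 26687 CPM in osteoclast-rich spots and 2572 CPM over all kept spots. Every osteoclast-rich spot rested on at least 22 UMIs of the 3 genes, with a median of 230.

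Nf1 itself, on chr11:79230519-79472439 (mm39), was measured at 97.8 and 92.9 CPM in control osteoclast-rich spots of sections 1 and 2. In the Nf1Postn ones it was at 70.1 CPM in section 1, on 4 UMIs, and at 0 UMIs in section 2, for which the exact Poisson upper limit is 177 CPM. The log2 ratio of Nf1Postn over control was -0.90 (-2.79 to 0.47), so a difference in Nf1 was not detectable at this depth. In the other spots Nf1 was at 86.6 and 78.2 CPM in the control and 67.8 and 49.8 CPM in the Nf1Postn callus. Where the probes lie relative to the floxed exons was not analysed here, so these levels do not check the genotype.

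The control callus held 270 of the 296 spots. They were 155 of 1655 kept control spots in section 1 (9.37%, 8.00 to 10.9) and 115 of 1695 in section 2 (6.78%, 5.63 to 8.09). The Nf1Postn callus held 23 of 1126 kept spots in section 1 (2.04%, 1.299 to 3.05) and 3 of 1443 in section 2 (0.208%, 0.0429 to 0.606). The Nf1Postn share was thus below the control share in both sections, and the 2 Nf1Postn sections differed from each other by more than counting error. These are shares of all kept spots, and the tissue under those spots differed between genotypes. In the other spots a list of muscle genes was at 16346 CPM in control and 86073 CPM in Nf1Postn, and a list of osteoblast genes at 100701 and 56466 CPM. The part of this tissue make-up in the shares was not tested. Depth differed too, since the median UMI count of osteoclast-rich spots was 8634 in the control and 1980 in the Nf1Postn callus, against 6373 and 2893 in their other spots; with each spot thinned to 1000 UMIs before the choice the shares were 8.09% and 0.973%.

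**Figure D1:**
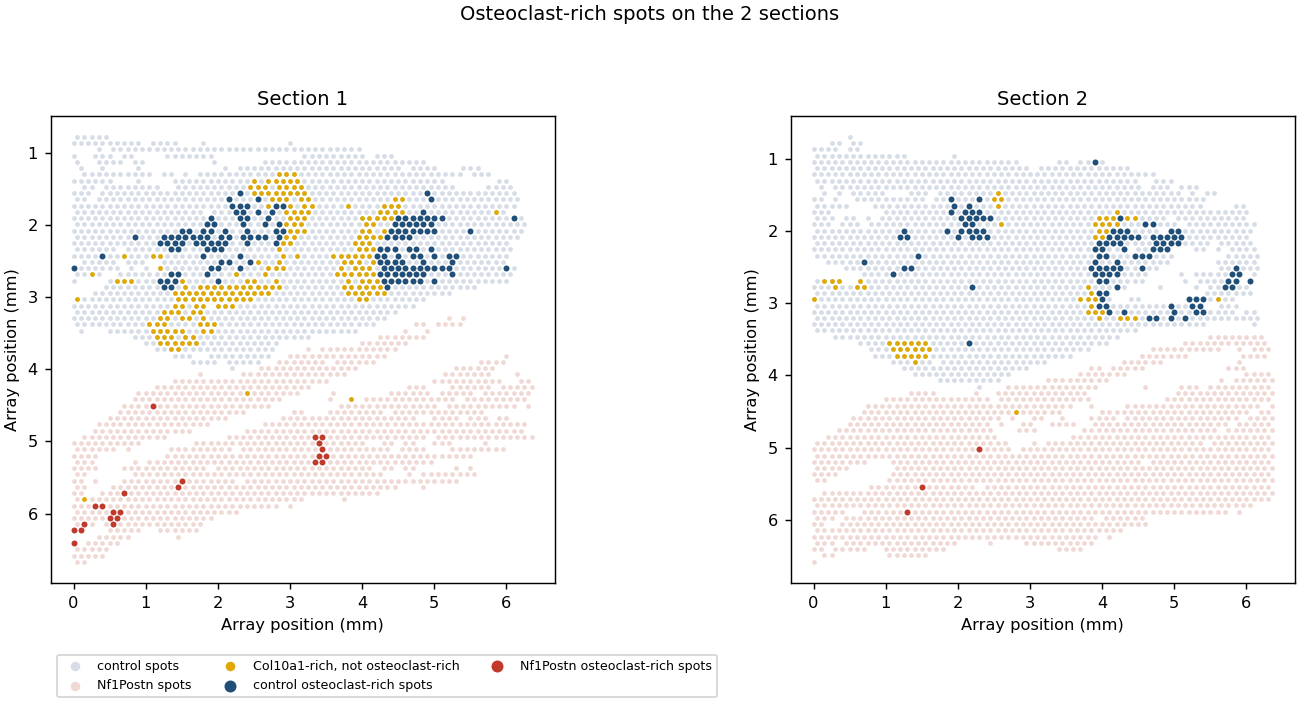
Position of the kept spots on the array in millimeters for both sections, with control spots in pale blue, Nf1Postn spots in pale red, Col10a1-rich spots in yellow and osteoclast-rich spots in dark blue (control) and dark red (Nf1Postn). The 270 control spots form fields on both sides of the callus center beside the Col10a1-rich bands, and the 26 Nf1Postn spots form a few small groups in section 1 and 3 single spots in section 2.

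Osteoclast-rich spots lay together. Of the neighbors of a control osteoclast-rich spot, 52.7% were osteoclast-rich in section 1 and 47.8% in section 2. For the Nf1Postn callus the share was 35.2% in section 1, and 0 of 18 neighbors in section 2. The control spots formed 24 connected patches in section 1, the 4 largest of 43, 32, 25 and 15 spots, and 26 patches in section 2, the 4 largest of 30, 19, 17 and 7 spots. The Nf1Postn spots of section 1 formed 8 patches, the largest of 8 spots. All Nf1Postn osteoclast-rich spots were at least 755 µm from the nearest control spot, so they did not border the other callus.

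The levels of the 3 genes describe the choice of spots. Acp5 was measured at 11653 and 11949 CPM in the control osteoclast-rich spots of sections 1 and 2 and at 7988 and 8794 CPM in the Nf1Postn ones. Ctsk was at 11878 and 12460 CPM in the control and 12245 and 12543 CPM in the Nf1Postn spots. Mmp9 was at 6895 and 6039 CPM in the control and 5273 and 5430 CPM in the Nf1Postn spots. Every group passed the same summed threshold, which shapes these levels and their shares, so no genotype difference is read from them. The median share of Ctsk in the sum was 40.1% in control and 47.8% in Nf1Postn spots, and Ctsk made up more than 50% of the sum in 9 of the 26 Nf1Postn spots and 10 of the 270 control spots.

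Promoters of these genes are printed because the genes were high in the same spots. The window read for motifs ran from 250 bases before to 50 after the start of the canonical transcript (GENCODE vM39, GRCm39), and the 250 bases before the start are shown, 5′ to 3′ on the strand of the gene, with motif letters in capitals. The motifs searched on both strands were CATGTG (an E-box bound by MITF), GGAAA (the NFAT core), GAGGAA (a PU.1 site, which can overlap GGAAA) and TGANTCA (AP-1).
Acp5, chr9:22042917-22043166, minus strand: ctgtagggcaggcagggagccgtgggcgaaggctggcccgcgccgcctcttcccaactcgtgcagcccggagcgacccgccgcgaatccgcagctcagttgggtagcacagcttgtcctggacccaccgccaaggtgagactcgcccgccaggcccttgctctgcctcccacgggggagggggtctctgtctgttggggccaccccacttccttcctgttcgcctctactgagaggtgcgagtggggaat
Ctsk, chr3:95405994-95406243, plus strand: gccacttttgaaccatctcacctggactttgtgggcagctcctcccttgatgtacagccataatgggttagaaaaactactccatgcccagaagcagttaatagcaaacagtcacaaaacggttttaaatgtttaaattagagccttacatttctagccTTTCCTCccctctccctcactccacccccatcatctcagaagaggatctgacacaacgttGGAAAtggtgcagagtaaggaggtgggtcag
Mmp9, chr2:164789889-164790138, plus strand: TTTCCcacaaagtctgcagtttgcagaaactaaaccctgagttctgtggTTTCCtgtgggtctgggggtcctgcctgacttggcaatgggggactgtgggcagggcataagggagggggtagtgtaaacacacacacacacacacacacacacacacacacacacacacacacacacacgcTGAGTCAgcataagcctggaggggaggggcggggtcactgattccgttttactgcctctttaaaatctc
Atp6v0d2, chr4:19922615-19922864, minus strand: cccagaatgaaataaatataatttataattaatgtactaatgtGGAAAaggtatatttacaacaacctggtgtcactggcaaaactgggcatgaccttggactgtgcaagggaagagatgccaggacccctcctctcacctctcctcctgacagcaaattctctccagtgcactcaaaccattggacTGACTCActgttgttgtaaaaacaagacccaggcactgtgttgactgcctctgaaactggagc
The Mmp9 and Atp6v0d2 windows hold TGANTCA within 70 bases of the start, and the Acp5 window holds none of the 4 motifs. The genes looked up were these 3 and the 10 named osteoclast genes with the highest CPM in these spots, and of the 11 promoters read, 7 held GGAAA, 4 GAGGAA, 2 TGANTCA and 1 CATGTG. Over all 21770 promoters of protein-coding genes read the same way the shares were 63.4%, 27.5%, 7.14% and 11.96%. A match is a description of letters and not of a bound site.

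Beyond these 3 genes, the osteoclast program was broadly higher in osteoclast-rich spots. Of 32 osteoclast genes that took no part in the choice (resorption machinery, fusion, and receptors with transcription factors), 29 had the 200 UMIs in each section needed for a count, and 19 of these were at least 2-fold higher than in the other spots in both sections, with none 2-fold lower. Over all 8989 genes counted, 155 were so (1.72%), and the median log2 ratio was -0.01 against 1.38 for the 29. Their summed level was 6028 and 5766 CPM in control and 5518 and 6440 CPM in Nf1Postn osteoclast-rich spots, against 2175, 2262, 2122 and 1403 CPM elsewhere. Within the control callus alone the count was 18 of 28, beside 1.46% of all genes.

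The resorption machinery was the most complete group, with 12 of 13 counted genes at least 2-fold higher, beside 1.72% of all genes. Atp6v0d2, a subunit of the proton pump specific to few cell types, stood at 226 and 183 CPM in control osteoclast-rich spots and at 193 and 144 CPM in Nf1Postn ones, against 36.9, 39.4, 41.8 and 16.3 CPM elsewhere, a log2 ratio of 2.603 (2.45 to 2.75). Tcirg1, the pump subunit of the ruffled border, had a log2 ratio of 1.55 (1.45 to 1.66). Clcn7, the chloride channel that balances the pump, and its partner Ostm1 had log2 ratios of 1.45 and 1.28. The acid supply followed, with Car2 (carbonic anhydrase II) at 1.67 and the bicarbonate exchanger Slc4a2 at 1.17.

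Itgb3, the integrin of the sealing zone, stood at 191 and 192 CPM in control spots and at 228 and 481 CPM in Nf1Postn spots, a log2 ratio of 2.17 (2.02 to 2.32). Ckb, brain-type creatine kinase, which supplies energy at the ruffled border, had 2.72, Rufy4 had 2.80, Plekhm1, a regulator of lysosome traffic, had 1.61, and Snx10, a sorting nexin, had 1.23. Src, a kinase needed for the ruffled border, was the exception, with log2 ratios of 0.97 in section 1 and 1.17 in section 2. Calcr, the calcitonin receptor, fell under the minimum of 200 UMIs and had a log2 ratio of 2.00. Beside the specialised subunits, 8 of 15 V-ATPase genes that all cells use were at least 2-fold higher (6 of 15 within the control callus, beside 1.72% and 1.46% of all genes), among them Atp6v1b2 (1.91) and Atp6v0c (1.61), while Atp6v0d1, the ubiquitous relative of Atp6v0d2, was at -0.17.

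**Figure D2:**
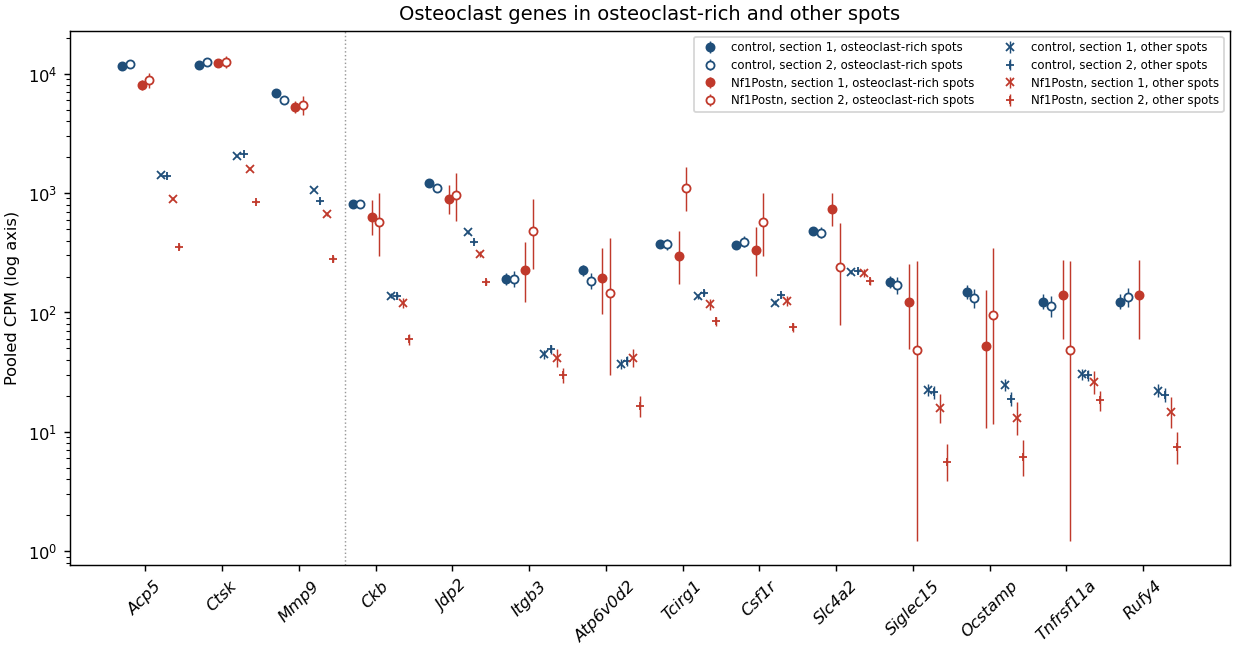
Pooled CPM (log axis) of 14 osteoclast genes in osteoclast-rich spots (circles) and other spots (crosses) of each genotype and section, with bars for exact Poisson 95% intervals; genes left of the dotted line chose the spots, and Rufy4 is at 0 in Nf1Postn section 2 and not drawn. For the genes right of the line, control circles stand above control crosses in both sections, and the Nf1Postn intervals are wide, for Siglec15 on 8 UMIs.

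Of 3 fusion genes counted, Ocstamp was at least 2-fold higher in both sections, beside 1.72% of all genes. Ocstamp, a membrane protein of fusing precursors, stood at 149 and 131 CPM in control and at 52.6 and 96.1 CPM in Nf1Postn osteoclast-rich spots, against 24.7, 19.0, 13.1 and 6.12 CPM elsewhere, a log2 ratio of 2.95 (2.75 to 3.14). Dcstamp, its better known relative, was under the minimum for a count, with a log2 ratio of 3.27 (3.00 to 3.53). Adam8 and Cd47, which many cells express, had log2 ratios of -0.33 and -0.03, and Adam8 turned to 0.38 when spots were thinned and to 0.25 when averaged per spot as log2(CPM + 1). At least 1 UMI of Ocstamp was found in 59.1% of osteoclast-rich spots, in 15.04% of Col10a1-rich spots and in 8.45% of all spots outside the class. It was found in 7.45% of osteoblast-rich and 7.12% of macrophage-rich spots, and in 0.676% of spots rich in the muscle genes Acta1 and Ckm. The osteoblast-rich spots were chosen to have few osteoclast genes, which shapes their share. Median depths were 8309 UMIs in osteoclast-rich, 4425 in all other and 2812 in muscle-rich spots. After thinning to 1000 UMIs the shares in these 3 groups were 12.5%, 1.62% and 0.338%.

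Receptors and transcription factors were more mixed, with 6 of 13 counted genes at least 2-fold higher, beside 1.72% of all genes. Tnfrsf11a, the RANK receptor, stood at 123 and 114 CPM in control and 140 and 48.1 CPM in Nf1Postn osteoclast-rich spots, against 30.4, 29.9, 26.0 and 18.4 CPM elsewhere. Csf1r, the receptor of CSF1, had a log2 ratio of 1.66 (1.56 to 1.77), the AP-1 factor Jdp2 1.66, the repressor Prdm1 1.90, Spi1 (PU.1) 1.38 and the adaptor Tyrobp (DAP12) 1.27. Oscar, a costimulatory receptor, was under the minimum and had 3.08. Nfatc1, the master factor of the lineage, had 1.21 in section 1 and 0.92 in section 2, and Mitf had 0.50. Irf8, which restrains osteoclast formation, had -0.73, and Trem2, shared with macrophages, had -0.55.

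Among the 15 genes with the highest ratios were some that stood in none of the osteoclast lists. Slc37a2, a sugar phosphate transporter of osteoclast lysosomes, stood at 249 and 222 CPM in control and 210 and 336 CPM in Nf1Postn spots, with a log2 ratio of 2.72. Slc9b2, a sodium proton exchanger, had 2.82, Tm4sf19, a tetraspan-like membrane protein, had 2.83, and Arsb, the lysosomal arylsulfatase B, had 2.32. Mt3, a metallothionein, had 2.94 (2.86 to 3.01) and Cfap45 2.64. The measured level of Mt3 was 1004 and 935 CPM in control against 333 and 673 CPM in Nf1Postn osteoclast-rich spots. The Nf1Postn value of section 2 rests on 3 spots with 20809 UMIs, and no interval is given, so no difference is read there.

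Some bone genes were higher in these spots. Of 11 osteoblast genes counted, 3 were at least 2-fold higher in both sections, beside 1.72% of all genes, and none lower, among them Bglap (osteocalcin, log2 ratio 1.39) and Spp1 (osteopontin, 1.58, which osteoclasts also make). The other 8 had log2 ratios between 0.42 (Col1a1) and 1.28 (Phex). Of 4 osteocyte genes counted, 3 were higher, and Dmp1, a matrix protein of young osteocytes, stood at 2119 and 2209 CPM in control and at 1121 and 144 CPM in Nf1Postn osteoclast-rich spots, against 603, 573, 378 and 257 CPM elsewhere. In Nf1Postn section 2 the whole osteocyte list, Dmp1 included, had 4 UMIs in these spots. Mepe and Sost, also osteocyte genes, had log2 ratios of 2.41 and 1.33. Within the control callus alone the osteocyte count was 1 of 3, beside 1.46% of all genes. The summed osteoblast list was at 136788 CPM in osteoclast-rich spots but at 242476 CPM in the osteoblast-rich spots, which Bglap and Ibsp of that list had chosen. For the osteocyte list the levels were 2795 and 2031 CPM. Mmp13, a collagenase of hypertrophic cartilage and of osteoblasts, had 1.74, while Col10a1, the collagen of hypertrophic cartilage, had -0.31 in section 1 and 0.59 in section 2.

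Signals that feed osteoclasts were measured at low counts. Csf1 stood at 44.7 and 40.6 CPM in control osteoclast-rich spots and 70.1 and 48.1 CPM in Nf1Postn ones, a log2 ratio of 1.52 (1.21 to 1.83), and was the 1 of 3 counted signal genes that was 2-fold higher in both sections, beside 1.72% of all genes. Tnfsf11 (RANKL) had a log2 ratio of 0.99 (0.73 to 1.25), and Tnfrsf11b (osteoprotegerin), the decoy receptor of RANKL, -0.19 (-0.66 to 0.26). Of the factors through which osteoclasts are known to signal to osteoblasts, 1 of 5 counted, Sema4d (semaphorin 4D), was 2-fold higher, at 1.74, beside the same 1.72%. Pdgfb had 1.04 and 0.93 in the sections, Sphk1 0.59 and Slit3 0.44, and Cthrc1, which bone-forming cells also make, had -0.28, which turned to 0.054 when thinned and to 1.61 when averaged per spot.

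Markers of other myeloid cells gave mixed values. Of 7 macrophage genes counted, Cd68, which osteoclasts share, had a log2 ratio of 1.69, while C1qa, C1qb, C1qc and Mrc1 had -0.59, -0.58, -0.39 and -0.89, and the list as a whole had -0.06. Averaged over spots as log2(CPM + 1), which weights shallow spots more, the list was at 1.20 and C1qa, C1qb and C1qc turned positive, so the direction for these genes depended on the averaging. The macrophage markers Adgre1 and Lyz2 were measured at few UMIs everywhere, at 2.01 and 0.806 CPM in osteoclast-rich spots (5 and 2 UMIs), 4.64 and 1.92 CPM in other spots and 10.9 and 7.63 CPM in macrophage-rich spots. Neutrophils also express Mmp9. Of 6 neutrophil genes counted, 4 were at least 2-fold lower and none higher (4.96% of all genes were lower), and the summed list was 147 and 77.8 CPM in control osteoclast-rich spots against 353 and 187 CPM in other control spots. In the Nf1Postn osteoclast-rich spots the neutrophil list stood at 666 CPM in section 1 and 96.1 CPM in section 2, against 621 and 200 CPM in other Nf1Postn spots, and its part in the choice of these spots was not tested. With the same averaging over spots the neutrophil ratio was 0.05.

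Muscle genes were lower in these spots. All 6 muscle genes counted were at least 2-fold lower, as were 4 of 6 fibrous and tendon genes, beside 4.96% of all genes. The log2 ratios of the summed lists were -2.27 and -1.39. The 10 lowest ratios of all were those of Chrne, Txlnb, Kcnj12, Synpo2l, Trim63, Ampd1, Abra, Ache, Dmd and Mylk2, most of them muscle genes. For the fibrous and tendon list the log2 ratio within the Nf1Postn callus was -0.37 in section 1 and 0.65 in section 2, and within the control callus -1.52. Muscle lay mainly in the Nf1Postn callus, and within the control callus alone the muscle ratio was -1.19, with 4 of 6 genes at least 2-fold lower beside 3.92% of all genes. None of 7 cartilage genes was 2-fold higher or lower in both sections, with log2 ratios for the list of -1.48 in section 1 and -0.16 in section 2, and 6 of the 7 turned positive when averaged over spots as log2(CPM + 1). None of 7 endothelial genes was past 2-fold either, with 0.26 for the list, and none of 2 adipocyte genes, with -0.85. All 3 erythroid genes counted were at least 2-fold lower (-1.60 for the list), but within the control callus alone none of 2 was, with -0.28.

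Levels were set against distance from osteoclast-rich spots in the control callus. The summed level of the 3 genes, whose step down at the spots is fixed by the choice, went from 30434 CPM in the spots themselves to 12309 CPM at 1 step of 100 µm, 6054 at 2 steps and 2925 at 5 steps. Siglec15 went from 176 to 63.8, 33.0 and 16.0 CPM, and the 32 osteoclast genes outside the choice from 5934 to 3533, 2499 and 1918 CPM. Dmp1 went from 2151 to 1676, 953 and 389 CPM. The summed osteoblast list did not peak in the osteoclast-rich spots but 1 step away. It was at 137787 CPM in the spots, 151470 at 1 step, 136849 at 2 and 84624 at 5 steps. Col1a2 made up 60.9% of this list over all osteoclast-rich spots. Bglap and Col1a1 were also higher at 1 step than in the spots, at 4204 against 3878 CPM and at 48541 against 42608 CPM. Spp1, of the same list, went the other way, at 3994 CPM in the spots and 2636 CPM at 1 step.

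Tnfsf11 went from 59.1 CPM in the spots to 29.6 at 5 steps, and Csf1 from 43.3 to 17.8 CPM, while Tnfrsf11b lay between 17.4 and 24.0 CPM at all steps. Tnfsf11 was not highest in the osteoclast-rich spots, since it was at 77.1 CPM (63.1 to 93.3) in control Col10a1-rich spots. There it was at 84.0 CPM in section 1 (67.8 to 102.9) and 48.7 CPM in section 2 (25.9 to 83.3). The macrophage list differed between sections at 1 and 5 steps. At 3 and 4 steps it was above its level in the spots in both sections. In section 1 it was at 913 CPM in the spots, then 815, 1060, 1031 and 842 CPM at 1, 3, 4 and 5 steps. In section 2 it was at 906 CPM in the spots, then 973, 958, 1112 and 1147 CPM at the same steps. Cartilage genes were higher with distance, at 16962 CPM in the spots and 58915 CPM at 5 steps, with little difference between 2 and 5 steps in section 2.

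**Figure D3:**
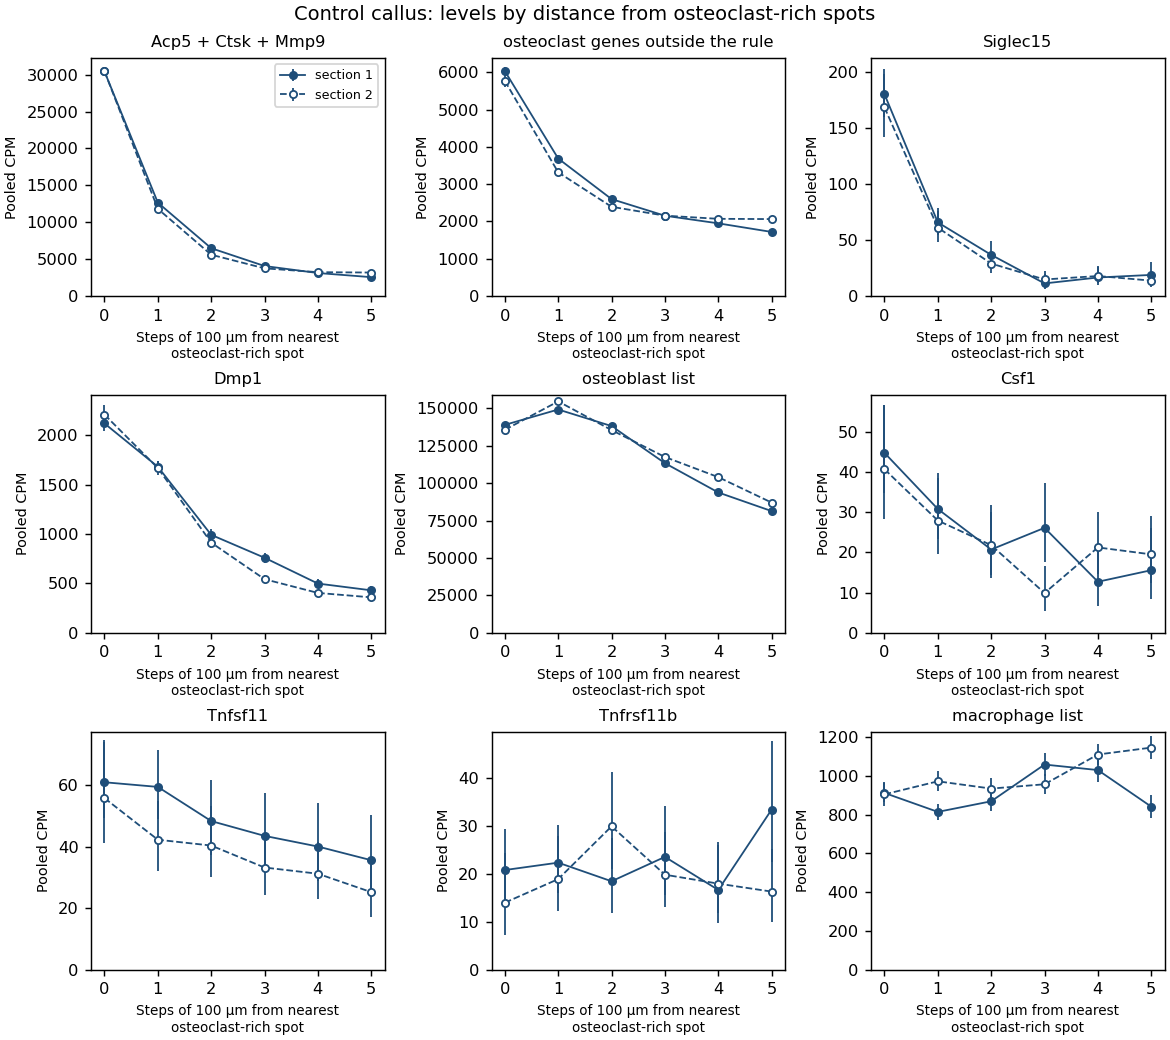
Pooled CPM in the control callus against steps of 100 µm from the nearest osteoclast-rich spot (0 is the spots themselves), for both sections, with exact Poisson 95% intervals. The osteoclast genes and Dmp1 fall from 0 outward in both sections, the osteoblast list is highest at 1 step, and the macrophage list is lower at 1 step than at 0 in section 1 and higher in section 2.

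Osteoclast-rich spots were most frequent a short way from the hypertrophic cartilage. Among control spots that were themselves Col10a1-rich (the top 5% of all kept spots by Col10a1), 3.42% were osteoclast-rich. The share was 9.22% up to 100 µm from such spots, 11.6% from there to 200 µm, 14.3% to 300 µm, 11.4% to 400 µm, 6.67% between 600 and 700 µm and 3.09% between 700 and 800 µm. The peak at 200 to 300 µm was seen in both sections, at 14.3% (9.71 to 20.0) and 14.4% (9.24 to 21.0), with intervals that overlapped those of the neighboring bins. The osteoclast genes outside the choice did not peak with the share. Their sum over both control sections was 2220 CPM in the Col10a1-rich spots and 2655 at 200 to 300 µm. It was 2860 CPM from there to 400 µm and 2655 between 700 and 800 µm. Siglec15 was at 40.7, 41.7, 44.5 and 24.9 CPM in these bins, and Mmp9 at 2257, 1562, 1690 and 1148 CPM. Median depth there was 4326.5, 8042.5, 7192.5 and 5854.25 UMIs, and its part in the share by distance was not tested. Bglap was higher farther out, at 3064 CPM between 600 and 700 µm against 775 CPM in the Col10a1-rich spots, with its highest bin at 700 to 800 µm in section 1 and 500 to 600 µm in section 2. Col2a1 was 106931 CPM in the Col10a1-rich spots and 12713 CPM between 600 and 700 µm. The median distance to a Col10a1-rich spot was 346 µm for control osteoclast-rich spots, 436 µm for all other control spots, 557 µm for osteoblast-rich spots with few osteoclast genes and 656 µm for spots rich in macrophage genes. The order against all other spots differed between sections, at 300 µm for osteoclast-rich and 265 µm for other spots in section 1 and at 361 and 529 µm in section 2.

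**Figure D4:**
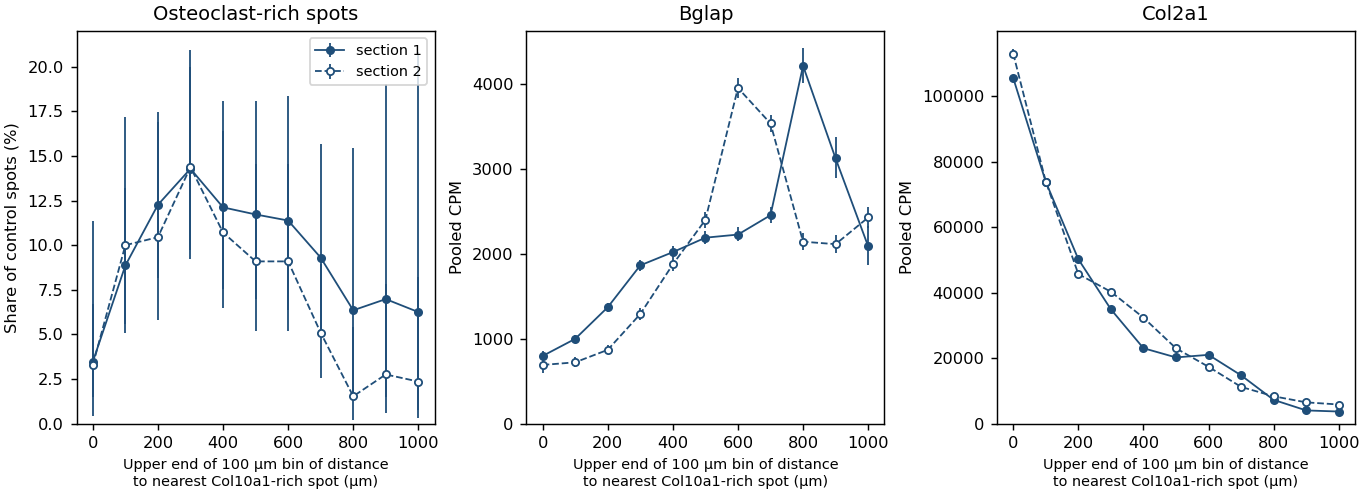
Share of control spots that were osteoclast-rich (left, with Clopper-Pearson 95% intervals) and pooled CPM of Bglap and Col2a1 (middle and right, exact Poisson 95% intervals) against distance to the nearest Col10a1-rich spot in bins of 100 µm, for both sections. The share is highest at 200 to 300 µm in both sections, nearer than the bins where Bglap is highest, and Col2a1 is highest at 0.

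Few genes differed between osteoclast-rich spots near the hypertrophic cartilage and those farther away. The 82 control spots within 200 µm of a Col10a1-rich spot were set against the 100 beyond 400 µm, and 7 of 2086 genes counted (0.336%) were at least 2-fold higher near the front in both sections and 2 (0.0959%) lower. Col10a1, which made the split, was 1 of the 7. The others were the cartilage genes Col2a1 (20380 against 8918 CPM), Col9a1, Hapln1 and Clec3a, the retinol carrier Rbp4, and Ptch1, the receptor and target of hedgehog signaling, at 178 against 62.1 CPM with log2 ratios of 1.51 and 1.48 in the sections. The lower 2 were Bglap, at 1833 against 5466 CPM, and the chemokine Cxcl14, at 94.96 against 208 CPM.

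The osteoclast genes outside the choice were at a like level at both positions, with a summed log2 ratio of 0.01 near over far and none of 19 counted past 2-fold in both sections. All these spots passed the same threshold on the sum of the 3 genes, whose levels are again only a description. The threshold can shape the other osteoclast genes too, so no likeness of the near and far spots is read from their list. Mmp9 was 8079 CPM near and 5949 CPM far, with log2 ratios of 0.55 and 0.14 in the sections, and its median share of the sum of the 3 genes was 24.1% near and 21.1% far, against 36.6% and 41.6% for Ctsk. Ocstamp was 173 CPM near and 111 CPM far (log2 ratio 0.64, 0.24 to 1.03). The osteoblast list had log2 ratios near over far of -0.39 and -0.30 in the sections, with 1 of 10 genes counted (Bglap) past 2-fold and a median of 0.07. With the spots chosen in 1 section alone the list was -0.081 without section 1 and -0.59 without section 2, and it turned to 0.23 when all spots were thinned to 1000 UMIs, so its direction depended on the processing.

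The few Nf1Postn osteoclast-rich spots were compared with the control ones gene by gene and by list. The 32 genes outside the choice had a summed log2 ratio of Nf1Postn over control spots of -0.04 (-0.18 to 0.09), which became -0.36 with TMM scaling, and none of 24 counted was 2-fold higher or lower in both sections. Spots of both genotypes passed the same threshold on Acp5, Ctsk and Mmp9, which can shape the levels of other osteoclast genes too. Neither a difference nor a likeness of the genotypes is therefore read from this list. Of all 3474 genes counted, 62 (1.78%) were 2-fold higher and 27 (0.777%) lower in both sections; with TMM scaling, which moves all values by 0.32 on the log2 scale in the pooled spots and by 0.78 in section 2, these counts became 10 and 125. With a section left out, the spots were chosen anew and a gene no longer had to pass in both sections. Counted in this other form, 452 genes were higher without section 2 and 637 without section 1. The Nf1Postn side rested on 77893 UMIs, of which 20809 came from the 3 spots of section 2.

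Of the bone genes, 2 of 11 osteoblast and 0 of 3 osteocyte genes counted were at least 2-fold lower in the Nf1Postn spots of both sections, beside 0.777% of all genes. Alpl, the alkaline phosphatase of mineralizing osteoblasts, stood at 1092 and 1197 CPM in control and at 491 and 144 CPM in Nf1Postn osteoclast-rich spots. It was among the 2 of 11 osteoblast genes at least 2-fold lower in both sections. Its Nf1Postn value of section 2 came from 3 spots with 20809 UMIs, so the call rests on few molecules there. The osteoblast list had log2 ratios of -0.21 in section 1 and -1.04 in section 2. It was -1.06 without section 1, and -0.04 (both sections) when spots were thinned to 1000 UMIs. The osteocyte list was at 2890 and 2768 CPM in control and at 1577 and 192 CPM in Nf1Postn spots, with no gene 2-fold lower in both sections among the 3 counted. Its last value rests on 4 UMIs. Cartilage genes were at 14883 and 20688 CPM in control and 3206 and 2595 CPM in Nf1Postn spots, and Col2a1 and Acan were the 2 of 7 past 2-fold, beside the same 0.777%.

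Of the other lists, the neutrophil, erythroid, fibrous and muscle ones had log2 ratios of Nf1Postn over control of 2.07, 1.93, 1.37 and 1.297. The neutrophil ratio was 2.18 in section 1 and 0.30 in section 2, and its part in the choice of spots was not tested. The macrophage list was at 0.14, the endothelial list at -0.50, and the adipocyte list rested on 2 UMIs in the Nf1Postn spots. Muscle genes stood at 5818 and 9558 CPM in control and at 18569 and 14897 CPM in Nf1Postn osteoclast-rich spots, erythroid genes at 139 and 247 against 578 and 961 CPM, and fibrous and tendon genes at 3157 and 3373 against 7288 and 11293 CPM; their part in the lower bone ratios was not tested. The other spots differed between genotypes too, with cartilage lists at 40692 CPM in control and 6648 in Nf1Postn, osteocyte lists at 942 and 509, osteoblast lists at 100701 and 56466, muscle lists at 16346 and 86073, erythroid lists at 217 and 1524 and fibrous lists at 9304 and 7976 CPM. The counts past 2-fold in both sections were 0 of 6 muscle, 2 of 2 erythroid and 1 of 4 fibrous and tendon genes, beside 1.78% of all genes, and the muscle log2 ratio in section 2, 0.64, was smaller than the TMM shift of that section. Among the 8 highest genes were the hemoglobins Hba-a2 and Hbb-bs, the muscle genes Myh1 and Casq1, the extracellular superoxide dismutase Sod3 (110 and 107 against 508 and 384 CPM), the matricellular gene Ccn5 (110 and 102 against 403 and 336 CPM), Fndc1 and Ctxn1. Among the 8 lowest, beside Col2a1, were Col9a3, Rbp4, the collagen Col22a1 (741 and 737 against 193 and 0 CPM), P3h4, Sdc3, Sgms2 and Rpn2. Of the 8 highest, Sod3, Fndc1 and Hbb-bs turned negative when spots were averaged as log2(CPM + 1), at -1.26, -0.79 and -0.25. That average weights shallow spots more, and the median depth was 1980 UMIs in Nf1Postn and 8634 in control osteoclast-rich spots. The part of depth in these sign changes was not tested.

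**Figure D5:**
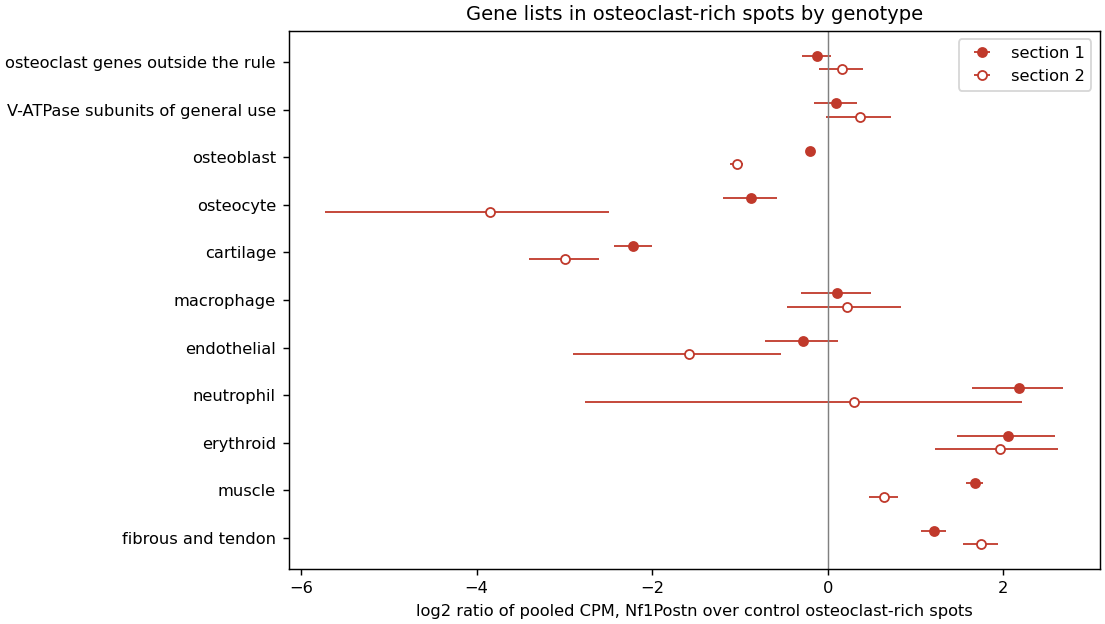
Log2 ratio of pooled CPM of gene lists in Nf1Postn over control osteoclast-rich spots, for section 1 (filled, 23 against 155 spots) and section 2 (open, 3 against 115 spots), with exact 95% intervals for counting error. The intervals of the osteoclast list include 0, cartilage and osteocyte lists lie below 0 and muscle, erythroid and fibrous lists above 0 in both sections. Spots of both genotypes passed the same threshold on Acp5, Ctsk and Mmp9, which can shape the osteoclast list too.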

How the data were processed

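FFPE Visium libraries of 2 sections were analysed. Probes were hybridised to the tissue, and reads were aligned to mm39 with Space Ranger 1.3.0 and exported from Partek Flow. The authors deposited estimated counts of UMIs per gene and spot, not normalized; 9 gene entries that join several identifiers hold means and are not whole, and an unnamed entry (6.81e-05% and 3.76e-05% of UMIs) was left out. Section totals were 17026501 and 18108050 UMIs. Genotype was taken from the deposited spot annotation, and 5 spots without one entered no genotype comparison. Both sections list 2711 barcodes in common, which are array positions. Spots were not treated for doublets.

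CPM were computed on named genes, pooled over spots. Intervals are exact Poisson (levels), conditional binomial (ratios) or Clopper-Pearson (shares) at 95%, and the count of genes past 2-fold used a minimum of 200 UMIs per section (50 within osteoclast-rich spots). A group under 3 UMIs was set to 3 and then could only be the lower one, which narrows the planned rule. Named genes were the lists, the 15 highest and 10 lowest ratios over other spots, 8 and 8 between genotypes, and Nf1. Comparison regions were top 5% spots of marker genes, and the 94 osteoblast-rich spots were limited further to spots with few osteoclast genes. The spots and gene lists were chosen with earlier results of these data known. Neighbors were up to 6 adjacent spots. Positions of all 137 named genes overlapped those of GENCODE vM39. Calls were tested on simulated data, with an outcome that is not reported here and on which no result rests. Alternatives varied the threshold, depth, genes, scaling and sections (Python 3.11.15, scipy 1.17.1, R 4.3.3, edgeR 4.0.16 for TMM). Single values of some list members are not reported here.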

Additional observations from a re-analysis of the deposited data

Results flagged for a closer look

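Atp6v0d1, the ubiquitous V-ATPase subunit, moved in opposite directions in the genotypes: its log2 ratio of osteoclast-rich over other spots was -0.28 and -0.10 in the control sections and 0.11 and 1.06 in the Nf1Postn sections. The difference was not tested, and the Nf1Postn values rest on 15 UMIs. Outside the kept spots, 14 of 460 spots under 1000 UMIs had a summed level past the threshold, 12 of them control and 2 Nf1Postn.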

How the results depend on the processing

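All values for spot groups are log2 ratios unless a share or count is named, and the cause of each difference was not tested. With the top 2% and the top 10% of spots, the control share was 3.31% and 15.9%, the share of adjacent osteoclast-rich spots 41.4% and 67.1%, the osteoclast list outside the choice 1.71 and 1.40, the osteoblast list 0.37 and 0.72, the neutrophil list -1.39 and -1.01, and the genes higher in Nf1Postn spots 25 and 115. The neutrophil list was -1.17 with all spots under tissue, -1.29 without Mmp9, -1.19 without Ctsk and -1.12 with the 3 genes averaged on a log2 scale. With a higher minimum depth of spots the osteoblast list near over far was -0.46. Thinned to 1000 UMIs, the osteoblast list was 0.70 over other spots and 0.23 near over far, the neutrophil list -0.69, and the counts 55 genes over other spots and 6 by genotype, with fewer genes counted. Chosen within each section, the adjacent share was 52.1%, the neutrophil list -1.26 and the genotype count 94. Averaged per spot as log2(CPM + 1), the osteoclast list was 1.98 over other spots and -0.36 by genotype, the osteoblast list 1.02, the macrophage list 1.20 and the neutrophil list 0.046. With TMM these were 1.60, -0.36, 0.71 and, for neutrophils, -1.06, and the genotype count 10. Without a filter the counts were 245 and 123. In 2 alternatives chosen after seeing the data, the control callus alone gave 1.42, 0.45 and -1.16 for the osteoclast, osteoblast and neutrophil lists, and letting a group raised to 3 UMIs be the higher one gave a genotype count of 110.

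Leaving out a section gave ranges of 199 to 265 genes over other spots and 452 to 637 by genotype. These counts rest on a single section with spots chosen anew, so they are not of the same form as the main counts. Ranges were -1.41 to -1.29 for neutrophils, 0.52 to 0.70 for osteoblasts and -1.06 to -0.43 for osteoblasts by genotype. They were -0.59 to -0.081 for osteoblasts near over far, -0.040 to 0.25 for the osteoclast list by genotype and 47.0% to 56.9% for the adjacent share. No paired test was made, as no test was made at all, and genotype ratios within each section are given instead.

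Among named genes, those that changed sign over other spots were, averaged per spot, Adam8 0.25, Trem2 0.019, Cthrc1 1.61, Atp6v0a1 0.095, Atp6v0d1 0.72, Pdpn 0.50, Col2a1 0.75, Acan 0.46, Sox9 0.45, Col9a1 0.086, Matn3 0.90, Hapln1 1.13, C1qa 0.41, C1qb 0.39, C1qc 0.69, S100a9 0.10, Pecam1 0.67, Cldn5 0.41, Scx 0.035, Fmod 0.081 and Cfd 0.22; thinned, Adam8 0.38, Cthrc1 0.054, Atp6v0d1 0.042 and Pecam1 0.098; without section 1, Mitf -0.077; in the control callus alone, Alas2 0.64. By genotype they were, averaged per spot, Fcer1g -0.40, Atp6v1e1 -1.28, Atp6v0e -1.17, Mmp13 -2.03, Hbb-bs -0.25, Des -1.05, Postn -1.32, Thbs4 -1.75, Sod3 -1.26 and Fndc1 -0.79; with the top 2%, Mmp13 -1.21; with the top 10%, Spp1 0.060; thinned, Col1a2 0.019; without section 1, Mmp13 -1.85; without section 2, Thbs4 -0.18. By genotype, Mmp13 ranged from -1.85 to 0.99 and Thbs4 from -0.18 to 1.85 when a section was left out. The 77893 UMIs of the Nf1Postn osteoclast-rich spots limit every genotype value.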
